A study of Mus musculus with 67 samples.

Results

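The transition from the 2-cell to the 4-cell stage was examined in mouse embryos that had not been exposed to light, by comparing 6 control 4-cell libraries with 7 control 2-cell libraries. These 13 libraries were taken by their sample titles from the 67 libraries of a single-cell transcriptome series that compared control with light-treated preimplantation embryos. Embryos of both stages were C57BL/6, came from 6-week-old females and 10-week-old males by in vitro fertilization, and were kept in a dark incubator. For a side-by-side view, 6 light 2-cell and 8 light 4-cell libraries of the same strain were used, whose embryos received 5000 lx for 6 h at the 2-cell stage. Control 8-cell (4 libraries), morula (13 libraries) and blastocyst (3 libraries) samples served to follow genes beyond the 4-cell stage. Embryos were dissociated and single cells were picked for SMART-seq2, a full-length method that copies RNA with a poly(A) tail. Neither the labels nor the methods say whether the cells of a group shared an embryo or a mouse, or at which hour within a stage the cells were taken, so p-values measure the spread between these libraries. Sex of the embryos was not labelled.

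The fully grown mouse oocyte is transcriptionally silent and carries a store of maternal mRNA with short poly(A) tails, held by RNA-binding proteins. After fertilization this store is removed, first through the CCR4-NOT deadenylase that maternal proteins such as BTG4 recruit, and then by factors made by the embryo itself. In the mouse the embryonic genome becomes broadly active at the 2-cell stage, which begins with a brief wave of genes such as the Zscan4 family and continues with genes for ribosomes, RNA processing and metabolism. Compaction and the first lineage decision between trophectoderm and inner cell mass follow at later cleavage stages.

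The deposited values are reads per gene divided by a size factor of each library, so they are not divided by gene length. Tests compare the same gene between libraries. Groups of genes by mean and sums over lists mix abundance with gene length. Total reads per library were 2758067 to 8151789 in the 2-cell group and 2892981 to 6536063 in the 4-cell group. Between 54.0% and 66.2% of reads in these 13 libraries fell on CT010467.1 and Gm42418, genes with ribosomal RNA-like sequence, and the remaining 1129726 to 2833011 reads carried the measurements described below. No 2 libraries agreed within sampling noise (chi-square per degree of freedom of at least 11.6 for any pair within a group). The 4-cell libraries 1 and 2 stood apart from 4-cell libraries 3 to 6. Their ratio of Gm42418 to CT010467.1 reads was 4.55 and 4.35 against 1.61 to 1.98, and they held 10504 and 10482 detected genes against 12025 to 12781 when every library was thinned to 1000000 reads outside these 2 genes. They also had no more than 1.46 reads per 1000000 on Y-linked genes against 77.0 to 353 in libraries 3 to 6, and Xist, the noncoding RNA of the inactive X chromosome, at 397 and 521 against 1.64 to 7.98. The ratio of Gm42418 to CT010467.1 reads was 2.34 to 4.03 in the 2-cell libraries, above 4-cell libraries 3 to 6 and below libraries 1 and 2. In the light 2-cell and 4-cell libraries it was 1.43 to 1.77. Its part in the comparison of the stages and in that with light was not tested. Summed oocyte gene values were 27743 to 59127 (median 43718) in 2-cell and 518 to 1526 (median 963) in 4-cell libraries. These genes are also a result below, so they do not check the stage labels. Because 4-cell libraries 1 and 2 stood apart, counts over all genes are also given without them, and those of lists where they move by more than 1.5 times.

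Fewer genes were detected at the 4-cell stage at equal depth. The thinned libraries held 13060 to 16188 genes (median 14717) at the 2-cell stage and 10482 to 12781 (median 12139) at the 4-cell stage, without overlap. The mean fell by 2917 genes (14714 ± 1034, SD, n = 7, against 11798 ± 1051, n = 6; two-sided exact permutation test, p = 0.0012, adjusted over 5 library measures p = 0.0058). The mitochondrial share of the remaining reads was 6.90% ± 1.33 in 2-cell and 4.61% ± 1.44 in 4-cell libraries (exact permutation p = 0.017, adjusted p = 0.044), and this call was lost when any of 9 single libraries was left out. Total reads, the ribosomal RNA-like share and the ratio of the 2 ribosomal RNA-like genes gave exact permutation p-values of 0.82, 0.58 and 0.60. Of the total squared distance among the 13 libraries, 49.6% lay between the stages (one-sided exact permutation p = 0.0006, the smallest that the regroupings of 13 libraries allow). Correlations of log2 values were 0.77 to 0.85 between 2-cell libraries, 0.75 to 0.87 between 4-cell libraries and 0.42 to 0.64 across stages.

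**Figure D1:**
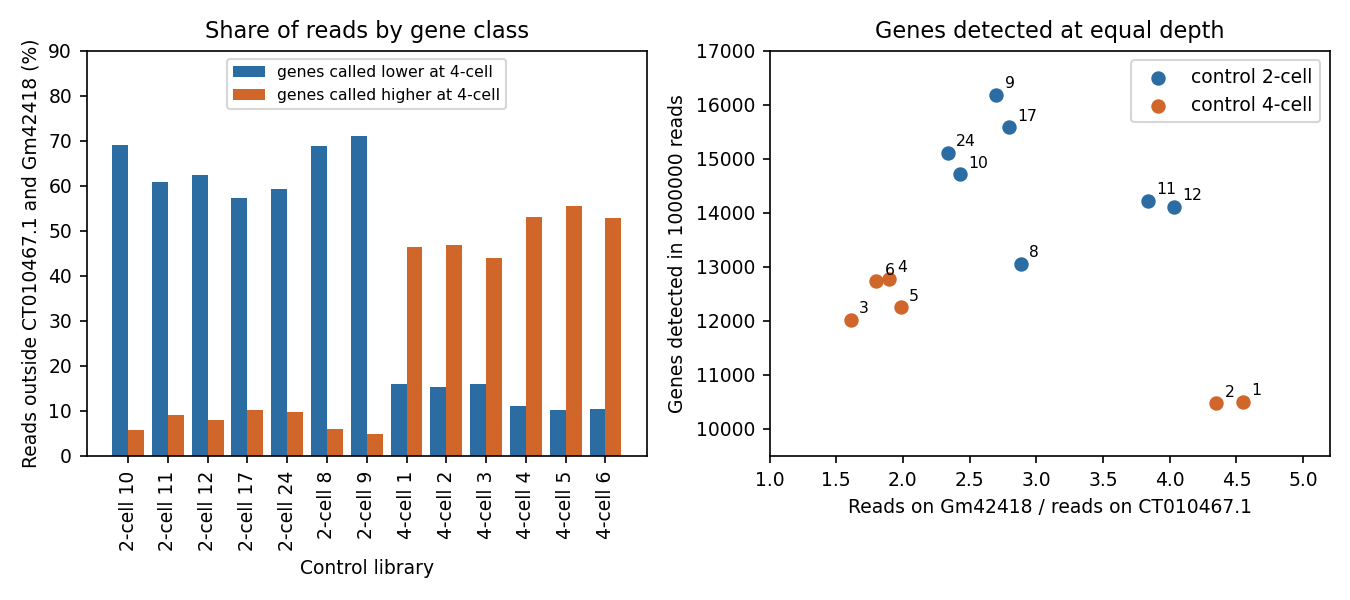
Left, for each control library the percentage of reads outside CT010467.1 and Gm42418 that lay on genes called higher and on genes called lower at the 4-cell stage. Right, genes detected in 1000000 such reads (vertical axis) against the ratio of reads on Gm42418 to reads on CT010467.1 (horizontal axis), 1 point per library: all 6 4-cell libraries lie below all 7 2-cell libraries, and 4-cell libraries 1 and 2 lie at the far right with the fewest genes.

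A large part of the transcriptome differed between the stages, and more genes fell than rose. Of 17725 genes tested, 8172 (46.1%) were DEGs at an adjusted p under 0.05 and a fold of at least 2 (limma, log2 scale after adding 1 to each value). At the 4-cell stage 5719 genes (32.3%) were lower and 2453 (13.8%) were higher. On the deposited scale the falls were also deeper, with a median log2 difference of -2.96 among downregulated genes and 2.43 among upregulated genes. A fall of at least 64-fold was measured for 225 genes and a rise of that size for 13. In 2832 genes (16.0%) every 4-cell library lay below every 2-cell library, and in 789 genes (4.45%) every 4-cell library lay above. The median of all genes tested was -0.72 on the log2 scale. These depths and the values of gene groups below should be read against it, and the order of the depths depends on the scale. Without 4-cell libraries 1 and 2, 4868 genes (28.0%) were lower and 2718 (15.7%) higher. Under quantile normalization, which forces equal value distributions on all libraries, the median moved to -0.02 and the split to 4049 lower and 4179 higher, so that 49.2% of DEGs were lower in place of 70.0%; the 2453 genes called higher were among the 4179. With reads scaled to an equal total outside the 2 ribosomal RNA-like genes the median was -0.53 and 63.3% of DEGs were lower. No gene changed its direction of call in any alternative.

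Genes with high values at the 2-cell stage were the most often called lower. Of the 127 genes tested with a 2-cell mean of at least 1000, 83.5% fell and 0% rose. The share that fell was 57.6% for means of 100 to 1000, 40.5% for means of 10 to 100 and 18.0% for means of 1 to 10. Below a mean of 1 it was 0%, and 32.9% rose. The genes were grouped on 2-cell values that entered the test, and a low value leaves little room for a fall. The values are also not divided by gene length. These shares by mean are therefore a description. Of 1729 downregulated genes with a 2-cell mean of at least 100, 165 were at or under 10 in every 4-cell library. Genes called lower took 57.2% to 71.0% (median 62.5%) of the reads outside the ribosomal RNA-like genes at the 2-cell stage and 10.3% to 16.0% (median 13.3%) at the 4-cell stage. Genes called higher went the other way, from 4.95% to 10.1% (median 8.05%) up to 43.9% to 55.5% (median 49.8%). These shares follow from the choice of the genes and are given as a description. Because the method copies polyadenylated RNA, loss of an RNA and loss of its poly(A) tail cannot be told apart here, nor can a smaller cell with less RNA be told apart from fewer copies at a constant total.

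Among the RNAs that fell furthest were known products of the oocyte. Log2 changes are given below as the 4-cell minus the 2-cell mean. Btg4 (chr9:51060901-51119875, GRCm38), the adaptor that brings the CCR4-NOT deadenylase to maternal mRNA, was at 1181 to 3231 (median 1973) in the 2-cell libraries and at 2.62 to 30.4 (median 10.4) in the 4-cell libraries. It fell by 7.66 on the log2 scale (SE 0.46, adjusted p = 9.6e-11). Cnot6l (chr5:96070333-96164171), a catalytic subunit of the same deadenylase, was at 512 to 835 (median 625) in 2-cell and at 0 to 16.6 (median 0.898) in 4-cell libraries, a log2 change of -7.80 (SE 0.61, adjusted p = 2.6e-09). In both genes every 4-cell library lay far below the lowest 2-cell library. Rfpl4 (chr7:5109787-5116950), an oocyte RING finger protein, was at 439 to 1313 (median 741) and then at 0 to 6.84 (median 2.68), and it fell by 7.90 on the log2 scale (SE 0.52, adjusted p = 2.8e-10). The most negative log2 difference of any gene tested belonged to Tcl1b4 (chr12:105201957-105206993), whose values were 223 to 900.2 (median 853) in 2-cell embryos and 0 to 3.42 (median 1.17) in 4-cell embryos, a log2 change of -8.13 (SE 0.55, adjusted p = 3.4e-10). Its neighbors Tcl1b3 and Tcl1b2 had log2 changes of -7.70 and -7.68, and these copies are similar enough in sequence that reads may be shared among them.

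The remaining genes of the 10 deepest falls were not all known as oocyte regulators. Bmp5, a secreted bone morphogenetic protein, was at 269 to 907 (median 665) in 2-cell and at 0 to 3.91 (median 1.91) in 4-cell libraries, a log2 change of -7.77 (SE 0.50, adjusted p = 2.2e-10). Rph3a, an effector of Rab3 GTPases in secretion, was at 214 to 592 (median 341) in 2-cell and at 0 to 3.28 (median 0.342) in 4-cell libraries, and Jazf1, a zinc finger protein of a histone acetyltransferase complex, at 233 to 399 (median 312) and then at 0 to 3.04 (median 0.328). Both differences passed the test, with log2 values of -7.74 (SE 0.52, adjusted p = 3.6e-10) and -7.65 (SE 0.51, adjusted p = 2.8e-10). Ccdc69 was at 236 to 494 (median 365) in 2-cell libraries and at 0 to 4.10 (median 0) in 4-cell libraries, of which most were at 0. Exons of Bmp5 overlap those of Gm26903, so a part of its reads could belong to that gene. Each of these 10 calls held in all 27 alternatives tried.

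**Figure D2:**
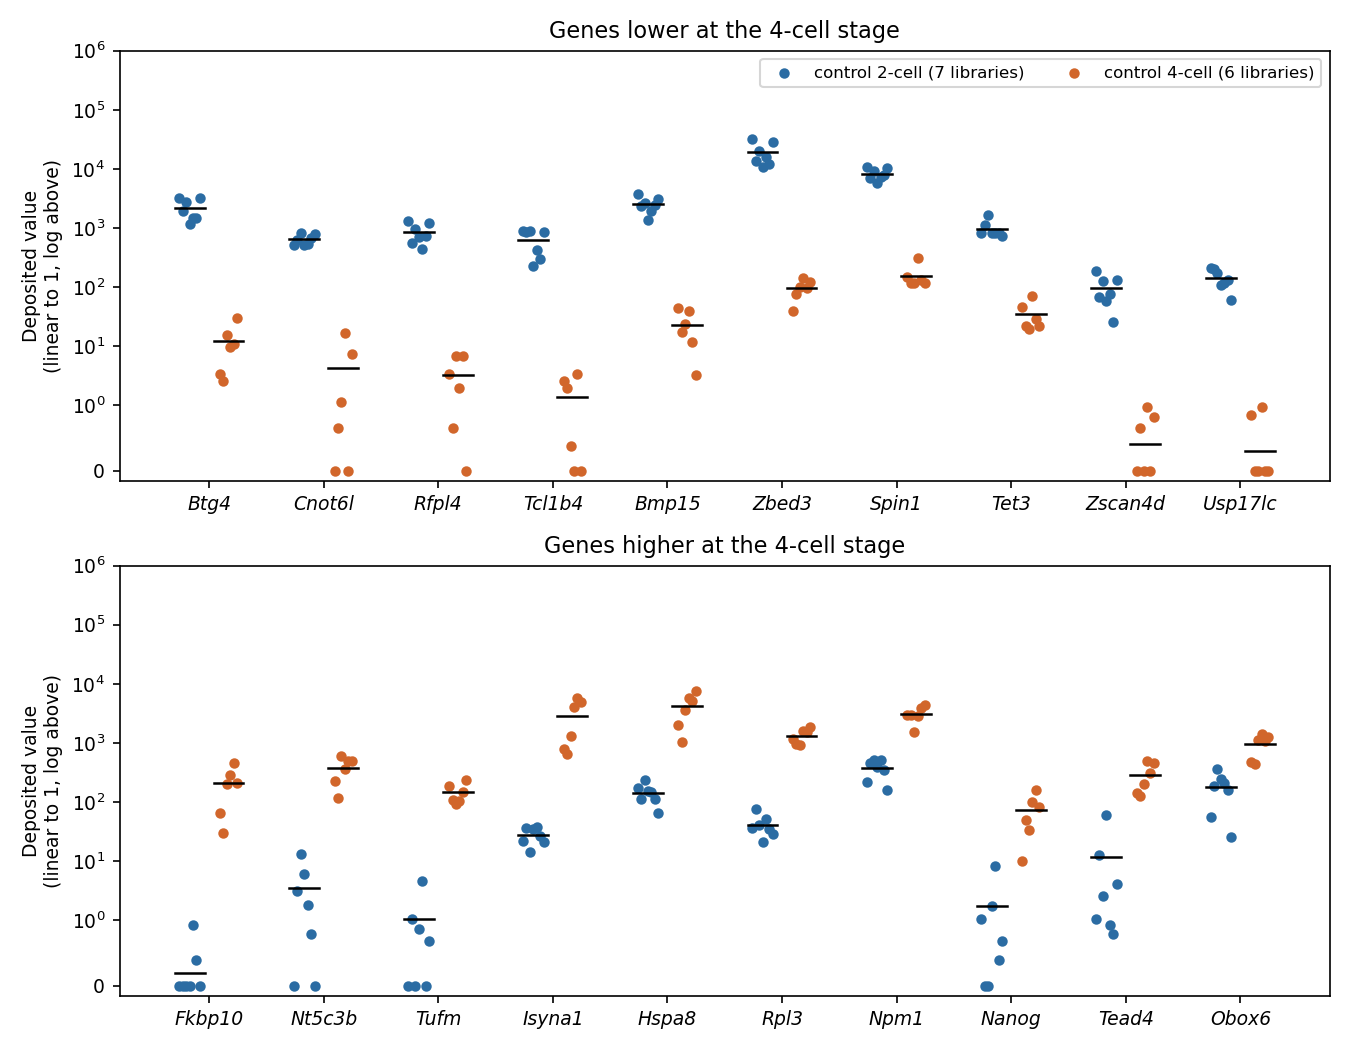
Deposited values (vertical axis, linear up to 1 and logarithmic above) of 10 genes called lower and 10 genes called higher, 1 point per library with the 7 control 2-cell libraries in blue and the 6 control 4-cell libraries in orange, and a black bar at the mean of each group. The groups do not overlap in any of the 20 genes, and several 4-cell values of Cnot6l, Rfpl4, Tcl1b4, Zscan4d and Usp17lc are 0.

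Oocyte growth factors, zona pellucida proteins and other oocyte regulators fell almost as a group. Of 43 genes tested on this list, 40 fell and 0 rose, beside 32.3% and 13.8% of all genes. The median log2 difference of the list was -4.64. In 33 the groups did not overlap, beside 16.0% (4-cell below) and 4.45% (4-cell above) of all genes. Bmp15, a growth factor that the oocyte sends to its granulosa cells, was at 1355 to 3779.7 (median 2434) and then at 3.28 to 43.5 (median 20.6), a log2 change of -6.99 (SE 0.45, adjusted p = 2.2e-10). Its partner Gdf9 was at 214 to 361 (median 263) in 2-cell and at 1.97 to 54.6 (median 19.7) in 4-cell libraries, a log2 change of -4.04 (SE 0.54, adjusted p = 3.2e-06). Spin1, a reader of methylated histones, stood at 5734 to 10966 (median 7799) and at 115 to 309 (median 124), a log2 change of -5.80 (SE 0.25, adjusted p = 3.6e-13). The value of 309 belonged to 4-cell library 4. Wee2, the oocyte kinase that restrains Cdk1, was at 1153 to 1732 (median 1410.2) in 2-cell and at 6.84 to 14.5 (median 8.36) in 4-cell libraries, a log2 change of -7.09 (SE 0.34, adjusted p = 1.7e-12). The zona pellucida genes did not move together. Zp1 and Zp2 had a log2 change of -4.26 (SE 0.73, adjusted p = 6.3e-05) and one of -3.83 (SE 0.56, adjusted p = 1.1e-05), while Zp3 was at 19.4 to 117 (median 62.5) and 4.94 to 114 (median 72.1), with a log2 difference of -0.15 (SE 0.65, adjusted p = 0.86). Mos, the kinase of meiotic arrest, was low in both groups, at 0 to 21.9 (median 1.38) and 0 to 16.4 (median 1.96), with a log2 difference of -0.31 (SE 0.91, adjusted p = 0.80). H1foo, the oocyte linker histone, and Dazl, a translational activator of germ cells, had log2 changes of -3.87 (SE 0.67, adjusted p = 7.0e-05) and -4.52 (SE 0.76, adjusted p = 4.7e-05). Without 4-cell libraries 1 and 2 the list held 38 falls among 43 genes.

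The subcortical maternal complex, a protein lattice beneath the oocyte membrane needed for the first cleavages, showed the same direction in its RNA. Of 16 genes of the complex and its Nlrp relatives, 13 fell and 1 rose, beside 32.3% and 13.8% of all genes. The other 2 were not called, and the median for the complex and its relatives was -4.67. Zbed3, one of its members, was at 10921 to 31702 (median 15693) and then at 39.2 to 144 (median 99.2), a log2 change of -7.60 (SE 0.30, adjusted p = 7.1e-14). Nlrp9c was at 328 to 532 (median 428) in 2-cell and at 0 to 5.75 (median 1.83) in 4-cell libraries, and Ooep, a scaffold member, at 37.7 to 89.5 (median 62.1) and then at 0 to 6.84 (median 1.06). Both fell, by 7.23 and 4.50 on the log2 scale. Core members were lost to different degrees: Nlrp5 (Mater) had a log2 change of -2.38 (SE 0.46, adjusted p = 2.4e-04), Padi6 a log2 change of -1.80 (SE 0.47, adjusted p = 0.0034), and Tle6 a log2 difference of -1.35 (SE 0.84, adjusted p = 0.19), at 4.60 to 66.5 (median 53.9) and then at 0 to 37.1 (median 25.4). Khdc3, the member that binds Nlrp5, had the opposite sign. It was at 0 to 3.68 (median 0.397) in 2-cell embryos and at 0.852 to 96.0 (median 11.7) in 4-cell embryos, a log2 change of 2.86 (SE 0.79, adjusted p = 0.0054) with overlapping groups, and it was at 187 to 541 (median 310.2) in control morulae. Its exons overlap those of Gm20509.

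Among the factors that store or remove maternal RNA, far more genes fell than rose. Of 49 genes tested, 26 fell and 6 rose, with a median of -1.68, beside 32.3% and 13.8% of all genes. Cnot7, the second type of catalytic subunit in CCR4-NOT, was at 419 to 952 (median 710.1) in 2-cell and at 34.7 to 283 (median 93.8) in 4-cell libraries, a log2 change of -2.85 (SE 0.43, adjusted p = 1.4e-05). Eif4e1b, the cap-binding protein of oocytes, had a log2 change of -6.16 (SE 0.48, adjusted p = 2.6e-09), and Ybx2, which coats and stabilizes stored mRNA, a log2 change of -5.67 (SE 0.79, adjusted p = 5.4e-06). Cpeb1, the protein that binds the cytoplasmic polyadenylation element, was at 43.2 to 174 (median 70.4) in 2-cell and at 0 to 36.9 (median 5.58) in 4-cell libraries, a log2 change of -3.89 (SE 0.83, adjusted p = 6.4e-04). Zar1, an RNA-binding maternal-effect protein, had only 3 reads over the 6 4-cell libraries against 224 over the 2-cell libraries, a ratio of 75.8 (95% Poisson interval 26.0 to 368), and its values were 8.69 to 35.2 (median 25.0) in 2-cell embryos and 0 to 1.64 (median 0) in 4-cell embryos. Its relative Zar1l and the oocyte poly(A)-binding protein gene Pabpn1l had low values at both stages, with log2 differences of -2.59 (SE 0.86, adjusted p = 0.018) and -2.29 (SE 0.71, adjusted p = 0.012). Cnot1, the scaffold of the CCR4-NOT complex, Ybx1, Ago2, Caprin1 and Larp1 were among those that rose. Caprin1, a protein of RNA granules, was at 32.1 to 134 (median 80.3) in 2-cell and at 153 to 569.8 (median 379) in 4-cell libraries, a log2 change of 2.11 (SE 0.41, adjusted p = 2.3e-04).

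The 3′ UTRs of downregulated genes were longer and more often held a cytoplasmic polyadenylation element. This element, TTTTAT or TTTTAAT searched on the transcript strand, lies near the polyadenylation signal of maternal mRNAs whose tails are controlled in the oocyte. Among 12799 genes tested that have a 3′ UTR in the GENCODE M21 annotation, its median length was 1246 bases for 4488 genes that fell, 640 for 1787 genes that rose and 837 for 6524 genes not called. The element was present in 68.4%, 49.97% and 54.8% of them. Within 3′ UTRs under 500 bases it was present in 32.5%, 23.3% and 23.3%, and within those of at least 2000 bases in 93.6%, 91.7% and 91.1%, so the gap was narrower at equal length. In the last 100 bases it was found in 21.5%, 16.0% and 17.7%. TATTTAT, an AU-rich element, was present in 33.7%, 19.5% and 24.9%. These shares are descriptions over genes, which are not replicates, and longer 3′ UTRs hold more of any short motif.

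Examples with the element close to the 3′ end are shown for 5 genes that fell and 3 that rose, as 28 bases of the GRCm38 reference with 1 copy of the element in capitals. Rfpl4 lies at chr7:5109911-5109938 (- strand), Zbed3 at chr13:95337806-95337833 (+ strand), Tcl1 at chr12:105216798-105216825 (- strand), Wee2 at chr6:40466757-40466784 (+ strand) and Zfp957 at chr14:79212372-79212399 (- strand). Those of upregulated genes lie at chr5:107908968-107908995 (+ strand) for Rpl5, at chr17:45567814-45567841 (- strand) for Hsp90ab1 and at chr4:118432919-118432946 (- strand) for Cdc20. The copy in capitals starts 25 to 62 bases before the annotated 3′ end of the first 5 transcripts and 27 to 56 bases before that of the others, and in Zbed3 and Rpl5 it overlaps the AATAAA signal. The stretch of Zbed3 holds a further copy of TTTTAT in lower case. In that of Cdc20 a further copy runs into the first letter of the copy in capitals.
Rfpl4: aatgctttcctTTTTATttgctataata
Zbed3: tccttttttttTTTTAATaaacttttat
Tcl1: aatgtgtgggaTTTTATgtggttctatt
Wee2: tttttaacataTTTTAATccagatcatt
Zfp957: tataaataaatTTTTATtaaactaataa
Rpl5: ttaactgaactTTTTAATaaatgagtca
Hsp90ab1: ttttttgtttgTTTTATtttgttctaaa
Cdc20: tcttgtttttaTTTTATtttttctaata
The letters are therefore present in genes of both directions. Zfp957, a zinc finger gene, was at 422 to 808 (median 652) in 2-cell and at 0.852 to 7.51 (median 5.23) in 4-cell libraries, a log2 change of -6.76 (SE 0.44, adjusted p = 2.5e-10), and Tcl1, a coactivator of the Akt kinase, at 1453 to 5628 (median 3483) and then at 7.51 to 32.0 (median 17.2), a log2 change of -7.55 (SE 0.39, adjusted p = 6.7e-12). Hsp90ab1, a cytosolic Hsp90 chaperone, and Cdc20, an activator of the anaphase-promoting complex, went the other way, with a log2 change of 4.08 (SE 0.34, adjusted p = 5.7e-09) and a log2 change of 2.58 (SE 0.34, adjusted p = 3.2e-06).

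Most transient genes of the early embryonic genome fell, several to values at or near 0, while their summed value overlapped between the stages. Of 50 genes of this group tested, 39 fell and 3 rose, beside 32.3% and 13.8% of all genes. The median of the group was -3.91 (-4.47 with genes at 0 reads in the 4-cell group set to their bound). The summed value of the list was 2304 to 6050 (median 4591) in 2-cell and 1162 to 5376 (median 2622) in 4-cell libraries. Zscan4c, of a family that acts on telomeres and chromatin, was at 13.5 to 104 (median 25.5) at the 2-cell stage and at 0 in every 4-cell library, at least 116-fold lower when 3 reads over the 4-cell group are taken as the floor. Zscan4d was at 26.2 to 187 (median 75.4) in 2-cell and at 0 to 0.978 (median 0.328) in 4-cell libraries, a log2 change of -5.94 (SE 0.61, adjusted p = 9.4e-08), and its 3 reads in the 4-cell group give a ratio of 252 (95% Poisson interval 86.3 to 1223). Usp17lc, of a family of deubiquitinases, had 1207 reads over the 2-cell and 2 reads over the 4-cell libraries, a ratio of 613 (95% Poisson interval 169.7 to 5062, counting error only). Gm21761 was at 0 in all 4-cell libraries, at least 152-fold lower. Zfp352, a zinc finger gene used as a marker of this stage, was at 71.7 to 204 (median 118) in 2-cell and at 0 to 4.56 (median 0.683) in 4-cell libraries, a log2 change of -5.84 (SE 0.60, adjusted p = 1.1e-07). Duxf3, the gene of the activator upstream of this program, was not tested: it was at 0 to 7.83 (median 0) in 2-cell and at 0 to 0.380 (median 0) in 4-cell libraries. Tdpoz4 was at 0 to 136 (median 31.2) and 9.78 to 93.7 (median 23.3), with a log2 difference of 0.35 (SE 0.93, adjusted p = 0.77). Zscan4, Usp17l and Tdpoz genes are near-identical copies, so the split of reads among them is uncertain. The members that rose were Trim43a, Trim43b and Pramel6. Trim43a was at 17.9 to 183 (median 126) in 2-cell and at 282 to 1782 (median 675) in 4-cell libraries, a log2 change of 2.98 (SE 0.52, adjusted p = 8.2e-05).

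Obox homeobox genes, a rodent family expressed from oocyte to early embryo, divided into 2 directions. Of 9 tested, 6 fell and 2 rose, beside 32.3% and 13.8% of all genes. Obox5 was at 409 to 1019 (median 483) in 2-cell and at 0.683 to 7.82 (median 2.54) in 4-cell libraries, a log2 change of -7.27 (SE 0.47, adjusted p = 2.2e-10). Obox1 was at 66.2 to 190.4 (median 82.3) and then at 0 to 2.93 (median 0), a log2 change of -6.28 (SE 0.59, adjusted p = 3.0e-08). Obox3 was at 11.0 to 196 (median 133) and then at 0 to 2.05 (median 0.600), a log2 change of -5.56 (SE 0.72, adjusted p = 2.1e-06). In each of these 3 genes the groups did not overlap. Obox6 was at 25.5 to 360.1 (median 189.7) and then at 434 to 1387 (median 1113), a log2 change of 2.69 (SE 0.51, adjusted p = 1.8e-04), and Crxos, a related homeobox gene, at 44.0 to 226 (median 117) and 386 to 1067 (median 844), a log2 change of 2.95 (SE 0.43, adjusted p = 9.1e-06). No 4-cell library overlapped the 2-cell range in either of these 2 genes. Obox1 shares exons with Obox2, and the call of Obox6 was lost when only 4-cell libraries 1 and 2 were kept.

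The 10 largest rises among genes whose groups did not overlap belonged to genes of various functions. Fkbp10 (chr11:100415697-100424824, GRCm38), a prolyl isomerase of the endoplasmic reticulum, was at 0 to 0.919 (median 0) in the 2-cell and at 29.5 to 459.7 (median 204) in the 4-cell libraries, a log2 change of 7.02 (SE 0.67, adjusted p = 3.9e-08). Only 2 of its reads lay in the 2-cell libraries, a ratio of 918 (95% Poisson interval 254 to 7580.4, counting error only). Its exons overlap those of Nt5c3b, a nucleotidase, which was at 0 to 13.0 (median 1.84) and 117 to 594 (median 428), so these 2 rises may share reads. Isyna1 (chr8:70594373-70597290), the enzyme that makes inositol phosphate from glucose phosphate, was at 14.4 to 37.7 (median 26.6) in 2-cell and at 653 to 5784 (median 2651) in 4-cell libraries, a log2 change of 6.24 (SE 0.49, adjusted p = 3.1e-09). Its 4-cell values were lowest in libraries 2 and 1, at 653 and 793, and highest in library 5. Tufm (chr7:126487361-126490731), the mitochondrial elongation factor Tu, was at 0 to 4.60 (median 0.690) in 2-cell and at 93.5 to 233 (median 129) in 4-cell libraries, a log2 change of 6.38 (SE 0.60, adjusted p = 3.3e-08). Phgdh, the first enzyme of serine synthesis, was at 0 to 78.3 (median 2.76) and then at 274 to 923 (median 558), and Bhmt, which remethylates homocysteine, at 1.04 to 6.21 (median 3.68) and then at 104 to 1176 (median 496). These 2 rises were 6.32 (SE 0.84, adjusted p = 3.1e-06) and 6.38 (SE 0.60, adjusted p = 3.4e-08). Galk1, a galactokinase, Frrs1, a ferric reductase, Cd22, a sialic acid-binding surface protein, and Ripor3 had a median of 0 at the 2-cell stage and rose by 6.73, 6.54, 6.55 and 6.62. In Galk1 one 2-cell library, 24, was at 22.1 while the others were at no more than 1.59.

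Cytosolic ribosomal proteins gave the broadest coordinated rise. Of 85 genes tested, 81 rose and 0 fell, with a median log2 difference of 2.92. Counts in this paragraph stand beside 13.8% higher and 32.3% lower over all genes. The summed value of the ribosomal proteins was 3181 to 11010.2 (median 8713) in 2-cell and 18100.5 to 76908 (median 56768) in 4-cell libraries. Rpl3, a protein of the large subunit, was at 20.9 to 76.1 (median 36.4) in 2-cell and at 935 to 1871 (median 1326) in 4-cell libraries, a log2 change of 5.03 (SE 0.35, adjusted p = 6.3e-10). Rpl5, which carries 5S ribosomal RNA to the large subunit, was at 22.9 to 77.2 (median 54.8) in 2-cell and at 447 to 1555 (median 1001) in 4-cell libraries, a log2 change of 4.17 (SE 0.42, adjusted p = 6.8e-08). All 6 4-cell libraries lay above all 2-cell libraries in both. Many ribosomal protein genes have processed pseudogenes with near-identical sequence, and reads may be split among them. Nucleolar genes for ribosome assembly rose in 47 and fell in 3 of 106 genes (median 1.18). With only 4-cell libraries 1 and 2 kept, 21 of them and 79 of the ribosomal proteins rose. Npm1, nucleophosmin, was at 161 to 519 (median 393) in 2-cell and at 1549 to 4294 (median 2928) in 4-cell libraries, a log2 change of 3.09 (SE 0.31, adjusted p = 6.2e-08), and Gnl2, a GTPase of large subunit assembly, at 0 to 40.9 (median 24.8) and then at 134 to 324 (median 271), a log2 change of 4.08 (SE 0.71, adjusted p = 6.9e-05). The box C/D snoRNP genes Nop56, Nop58 and Fbl rose by 2.26, 1.60 and 1.05 with overlapping groups, and nucleolin (Ncl) by 1.95. Nol8 and Rrs1 had log2 changes of -1.90 (SE 0.36, adjusted p = 1.9e-04) and -2.24 (SE 0.62, adjusted p = 0.0053). Translation factors rose in 34 and fell in 2 of 52 genes, with a median of 1.60. Eef2, the translocation factor of elongation, was at 98.8 to 447 (median 309) in 2-cell and at 1079 to 2660.1 (median 2294) in 4-cell libraries, a log2 change of 2.91 (SE 0.33, adjusted p = 3.9e-07), and Eif1a, an initiation factor gene long used as a marker of embryonic transcription, at 17.1 to 111 (median 43.1) and then at 77.3 to 349.99 (median 223), a log2 change of 2.21 (SE 0.51, adjusted p = 0.0012). The 2 that fell were Eef2k, the kinase that inhibits Eef2, with a log2 change of -5.93 (SE 0.71, adjusted p = 7.8e-07), and Eif5a2.

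Genes of RNA synthesis and processing changed in part, and their counts stand beside 13.8% higher and 32.3% lower over all genes. Core spliceosome genes rose in 22 and fell in 2 of 71 tested, with a median of 0.58, and 10 rose with only 4-cell libraries 1 and 2 kept. Eftud2, a GTPase of the U5 particle, was at 0 to 25.0 (median 6.90) in 2-cell and at 136 to 459 (median 247) in 4-cell libraries, a log2 change of 5.25 (SE 0.70, adjusted p = 3.3e-06), and Snrpb, a core Sm protein, at 16.3 to 89.1 (median 44.3) and then at 216 to 642 (median 441), a log2 change of 3.24 (SE 0.44, adjusted p = 4.4e-06). RNA polymerase II subunits and general factors were split, with 12 higher and 11 lower of 59, and the split was 24 to 8 under quantile normalization. Gtf2h2, of the helicase factor TFIIH, was at 0 to 10.4 (median 2.38) in 2-cell and at 39.3 to 252 (median 86.6) in 4-cell libraries, a log2 change of 5.10 (SE 0.73, adjusted p = 7.2e-06). In contrast Gtf2a1, of TFIIA, was at 970.1 to 1438 (median 1057) in 2-cell and at 73.7 to 163 (median 109.9) in 4-cell libraries, a log2 change of -3.37 (SE 0.28, adjusted p = 6.1e-09). Taf3, of TFIID, had a log2 change of -3.48 (SE 0.41, adjusted p = 6.0e-07). Genes named Zfp, mostly zinc finger repressors and other DNA-binding proteins, fell in 89 and rose in 14 of 301 (median -1.03), or 61 and 32 under quantile normalization and 71 and 24 without 4-cell libraries 1 and 2. Their share of falls, near that of all genes, is no result about these genes.

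Most oxidative phosphorylation genes encoded in the nucleus rose, and those encoded in the mitochondrion did not pass the test in either direction. Of 78 subunits of oxidative phosphorylation, 59 rose and 0 fell (median 2.25). Counts in this paragraph stand beside 13.8% higher and 32.3% lower over all genes. Ndufs6, of complex I, was at 0 to 4.16 (median 0) in 2-cell and at 17.1 to 145 (median 73.2) in 4-cell libraries, a log2 change of 5.13 (SE 0.69, adjusted p = 3.8e-06), and its exons overlap Mrpl36, also a member of the next group. Mitochondrial ribosomal proteins rose in 46 of 78 and fell in 1, Mrps30, or in 3 without 4-cell libraries 1 and 2. Mrpl22 was at 3.45 to 33.9 (median 15.6) in 2-cell and at 129 to 449 (median 312) in 4-cell libraries, a log2 change of 3.97 (SE 0.53, adjusted p = 3.1e-06). For the 13 mitochondrially encoded genes the median was -0.54, with 2 falls when 4-cell libraries 1 and 2 were left out. With those 2 libraries alone, 25 oxidative phosphorylation genes and 20 mitochondrial ribosomal proteins rose. Proteasome genes rose in 33 and fell in 2 of 45 (median 2.32), and 15 rose with only 4-cell libraries 1 and 2 kept (median 1.26). Psmd7, of the lid of the regulatory particle, was at 58.6 to 149 (median 122) in 2-cell and at 429 to 730.2 (median 593) in 4-cell libraries, a log2 change of 2.49 (SE 0.32, adjusted p = 2.3e-06). The ubiquitin receptor gene Psmd4 was at 52.1 to 202 (median 88.7) and then at 392 to 919 (median 673), a log2 change of 2.76 (SE 0.38, adjusted p = 4.0e-06). The 2 that fell, Psme4 and Psme3, encode alternative activator caps of the proteasome, and they had log2 changes of -4.61 (SE 0.45, adjusted p = 4.9e-08) and -3.21 (SE 0.36, adjusted p = 3.7e-07). Genes of the heat shock list moved both ways. Hspa8, the constitutive Hsp70, was at 66.2 to 234 (median 148) in 2-cell and at 1048 to 7491 (median 4327) in 4-cell libraries, a log2 change of 4.67 (SE 0.40, adjusted p = 7.8e-09), while Hsf1, the heat shock transcription factor, had a log2 change of -3.08 (SE 0.50, adjusted p = 3.5e-05). Hspa1a and Hspa1b, the inducible Hsp70 genes, were low, at 2.07 to 26.9 (median 9.37) and 0 to 7.59 (median 3.48) at the 2-cell stage, and Hspa1b was at 0 in all 4-cell libraries, at least 10.1-fold lower. Heat shock genes as listed rose in 20 and fell in 9 of 53, beside 13.8% and 32.3% of all genes. Among the 20 that rose were the 8 subunits of the TRiC chaperonin (Tcp1, Cct2, Cct3, Cct4, Cct5, Cct6a, Cct7 and Cct8).

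**Figure D3:**
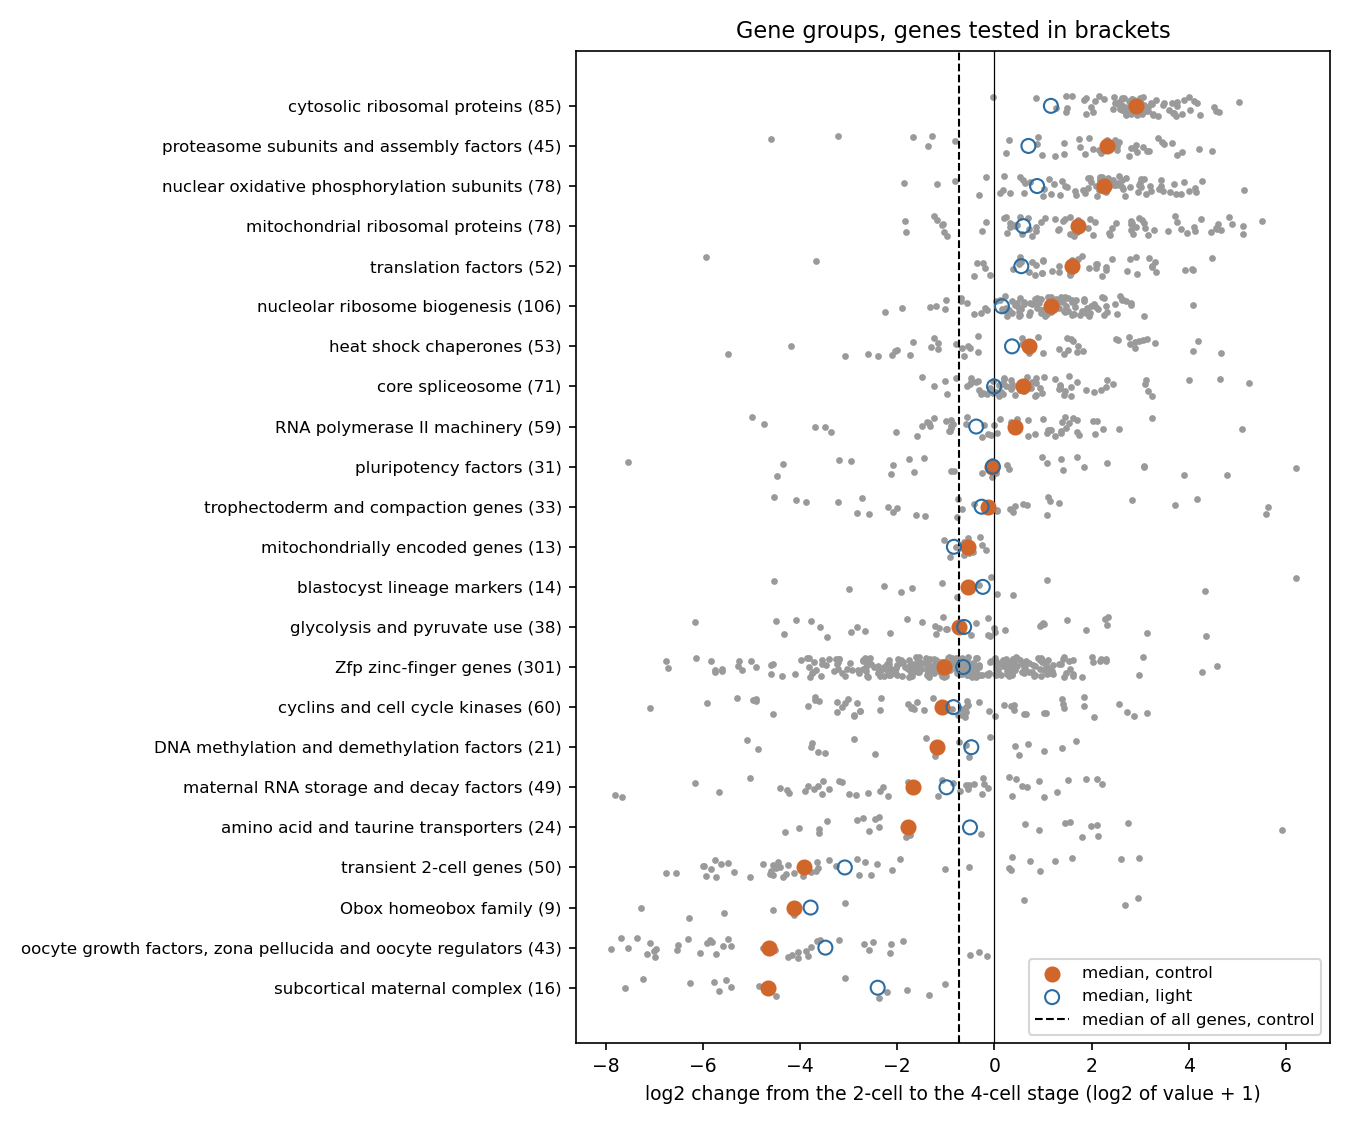
Log2 difference between the 4-cell and the 2-cell stage (horizontal axis, log2 of the value plus 1) for the members of each gene group (grey points, number of genes tested in brackets), with the group median in control (filled orange) and light libraries (open blue) and the median of all control genes at -0.72 (dashed). Ribosomal protein, oxidative phosphorylation and proteasome genes lie to the right and oocyte, subcortical maternal complex and transient 2-cell genes to the left, with light medians closer to 0 in each of these 6 groups.

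Promoters of upregulated genes more often held the core of the site bound by ETS family factors. CCGGAAG was searched on both strands from 250 bases before to 50 bases after the start of each gene in RefSeq promoters (GRCm38.p6), which were matched for 9124 of the genes tested. It was found in 27.1% of 1264 promoters of genes that rose, 12.2% of 3040 of genes that fell and 18.6% of 4820 of genes not called, against 17.6% of all. Without ribosomal protein and oxidative phosphorylation genes the shares were 26.2%, 12.2% and 18.5%. By group, 22 of 48 spliceosome, 35 of 80 nucleolar and 22 of 52 ribosomal protein promoters held it, and 0 of 10 of the subcortical maternal complex and 0 of 22 of transient 2-cell genes. Groups with calls in both directions ranged from 0 of 22 for glucose metabolism and 0 of 17 for pluripotency factors to 15 of 39 for RNA polymerase II genes, and 45 of 198 Zfp genes, which fell more often than they rose, held it. AAGATGGCG, a YY1 motif, was found in 5.22%, 2.40% and 3.28%, and CACGTG, an E-box, in 12.9%, 8.55% and 9.65%. TATAAA between 50 and 15 bases before the start was found in 0.87%, 1.94% and 1.45%. GGGCGG, the GC box, was near the background in each class, at 60.8%, 62.4% and 61.0%.

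Shown are the promoters of 3 upregulated genes with the core and that of Btg4 without it. They lie at chr7:126487105-126487404 (+ strand) for Tufm, chr8:70594231-70594530 (+ strand) for Isyna1, chr13:100492345-100492644 (- strand) for Gtf2h2 and chr9:51115751-51116050 (+ strand) for Btg4, each printed on the strand of its gene. The RefSeq start used for Btg4 lies inside the GENCODE span of the gene given above and not at its edge. Capitals mark CCGGAAG or its complement CTTCCGG.
Tufm: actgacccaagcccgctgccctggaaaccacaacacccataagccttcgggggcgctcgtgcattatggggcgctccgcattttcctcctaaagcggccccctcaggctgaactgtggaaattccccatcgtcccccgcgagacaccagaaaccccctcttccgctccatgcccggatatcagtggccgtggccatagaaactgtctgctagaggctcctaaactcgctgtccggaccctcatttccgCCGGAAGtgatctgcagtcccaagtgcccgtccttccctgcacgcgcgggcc
Isyna1: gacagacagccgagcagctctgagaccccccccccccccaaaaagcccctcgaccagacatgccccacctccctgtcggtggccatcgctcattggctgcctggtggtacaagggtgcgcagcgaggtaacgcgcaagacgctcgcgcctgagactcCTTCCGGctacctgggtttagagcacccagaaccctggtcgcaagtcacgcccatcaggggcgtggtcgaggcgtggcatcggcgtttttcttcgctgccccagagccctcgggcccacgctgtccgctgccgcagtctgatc
Gtf2h2: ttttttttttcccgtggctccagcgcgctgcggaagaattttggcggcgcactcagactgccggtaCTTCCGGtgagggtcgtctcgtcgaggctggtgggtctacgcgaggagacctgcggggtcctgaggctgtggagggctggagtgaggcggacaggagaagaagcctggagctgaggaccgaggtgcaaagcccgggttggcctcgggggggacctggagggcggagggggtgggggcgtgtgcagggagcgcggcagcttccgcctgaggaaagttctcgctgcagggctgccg
Btg4: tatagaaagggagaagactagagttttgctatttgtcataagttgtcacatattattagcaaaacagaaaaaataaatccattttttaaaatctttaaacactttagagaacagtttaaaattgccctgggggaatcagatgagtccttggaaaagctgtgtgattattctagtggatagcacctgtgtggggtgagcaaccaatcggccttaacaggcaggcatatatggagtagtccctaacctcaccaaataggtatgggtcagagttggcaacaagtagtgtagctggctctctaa
A match is a description of these letters and not of a bound factor.

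Among genes of DNA methylation and imprint protection 9 fell and 2 rose of 21, beside 32.3% and 13.8% of all genes, and without 4-cell libraries 1 and 2 1 rose. Tet3, the dioxygenase that oxidizes methylcytosine in the zygote, was at 747 to 1632 (median 814) in 2-cell and at 19.4 to 69.4 (median 25.4) in 4-cell libraries, a log2 change of -4.87 (SE 0.37, adjusted p = 1.7e-09). Zfp57, which guards imprints together with Trim28, was at 331 to 854 (median 424) in 2-cell and at 22.9 to 108 (median 35.3) in 4-cell libraries, a log2 change of -3.75 (SE 0.41, adjusted p = 2.3e-07), while Trim28 itself was at 60.4 to 368 (median 202) in 2-cell and at 368 to 966 (median 521) in 4-cell libraries, a log2 change of 1.68 (SE 0.43, adjusted p = 0.0031). Dnmt1, the maintenance methyltransferase, was at 74.4 to 207 (median 136) and 50.5 to 224 (median 83.6), with a log2 difference of -0.52 (SE 0.42, adjusted p = 0.32). Dppa3 (Stella), a maternal protector of methylation, stayed abundant, at 1028 to 2439.6 (median 1766) and 1776 to 4587 (median 2631), with a log2 difference of 0.69 (SE 0.26, adjusted p = 0.032), under the fold of 2.

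Pluripotency factors did not move as a group, with 7 higher and 7 lower of 31, beside 13.8% higher and 32.3% lower of all genes. Nanog, a core factor of the inner cell mass, was at 0 to 8.27 (median 0.690) in 2-cell and at 10.2 to 161 (median 66.3) in 4-cell libraries, a log2 change of 4.79 (SE 0.73, adjusted p = 1.7e-05), and Dppa2, a chromatin factor of early embryonic genes, at 31.2 to 251 (median 72.6) and then at 542 to 999.7 (median 756), a log2 change of 3.07 (SE 0.46, adjusted p = 1.3e-05). Sox2 had the opposite direction, at 4.60 to 70.8 (median 26.2) in 2-cell libraries and at 0 in every 4-cell library, at least 93.3-fold lower. Pou5f1 (Oct4), the partner of Sox2, was at 96.8 to 289.6 (median 186) and 46.0 to 456 (median 219.5), with a log2 difference of -0.06 (SE 0.49, adjusted p = 0.93). The Krüppel-like factors differed among themselves: Klf4 had a log2 change of -2.12 (SE 0.69, adjusted p = 0.016), while Klf17 and Klf5 had log2 differences of 0.03 (SE 0.37, adjusted p = 0.95) and -0.24 (SE 0.45, adjusted p = 0.68). Genes of the trophectoderm and of compaction were also split, 7 higher and 8 lower of 33, beside the same shares of all genes. Tead4, the factor that opens the trophectoderm program, was at 0.793 to 60.0 (median 2.61) in 2-cell and at 127 to 502 (median 253) in 4-cell libraries, a log2 change of 5.59 (SE 0.74, adjusted p = 2.8e-06), and Cldn4, a tight junction claudin, at 1.04 to 3.68 (median 1.98) and then at 11.0 to 531 (median 266), a log2 change of 5.64 (SE 0.74, adjusted p = 2.7e-06). Yap1, the coactivator that works with Tead4, was at 1068 to 2038 (median 1273) in 2-cell and at 126 to 274 (median 194) in 4-cell libraries, a log2 change of -2.82 (SE 0.27, adjusted p = 5.0e-08). Cdx2, the trophectoderm factor downstream of both, was too low to be tested, at 0 to 0.869 (median 0) and 0 to 1.64 (median 0.190). Of genes that mark blastocyst lineages, Tdgf1 was at 0 to 6.52 (median 0) and then at 5.11 to 1197 (median 197), and Gata6 at 0 to 22.1 (median 0.869) and then at 29.8 to 154 (median 76.7). Both rose, by 6.20 and 4.34, and the call of Gata6 was lost with only 4-cell libraries 1 and 2 kept. Of 14 lineage genes tested 5 fell, near the 32.3% of all genes, Gata4 among them with a log2 change of -1.92 (SE 0.41, adjusted p = 6.6e-04).

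Of 60 cell cycle genes 26 fell and 11 rose, beside 32.3% and 13.8% of all genes, and the difference from all genes was not tested. Individual members moved both ways. Ccnb1, cyclin B1, was at 136 to 594 (median 373) in 2-cell and at 959 to 2274 (median 1328) in 4-cell libraries, a log2 change of 2.04 (SE 0.33, adjusted p = 3.8e-05), and Plk1 and Cdk1, kinases of mitotic entry, had log2 changes of 1.44 (SE 0.43, adjusted p = 0.0094) and 1.07 (SE 0.40, adjusted p = 0.032). Ccna2, cyclin A2, was at 517 to 1087 (median 795) and 231 to 829 (median 596), with a log2 difference of -0.60 (SE 0.32, adjusted p = 0.13). E2f5, a repressive E2F factor, was at 521 to 1192 (median 616) in 2-cell and at 4.18 to 41.9 (median 24.1) in 4-cell libraries, a log2 change of -4.97 (SE 0.46, adjusted p = 2.3e-08). In glucose metabolism, 7 genes rose and 10 fell of 38, near the shares over all genes. Aldoa, a glycolytic aldolase, and Hk1, a hexokinase, had log2 changes of 3.14 (SE 0.56, adjusted p = 9.7e-05) and 4.35 (SE 0.78, adjusted p = 1.1e-04). Pdk1, the kinase that shuts pyruvate dehydrogenase, was at 53.3 to 128 (median 80.9) in 2-cell and at 0 to 0.978 (median 0) in 4-cell libraries, a log2 change of -6.16 (SE 0.56, adjusted p = 2.1e-08) (1 read in the 4-cell group, a ratio of 737, 95% Poisson interval 132 to 29128). G6pdx, which feeds the pentose phosphate pathway, had a log2 change of -4.08 (SE 0.52, adjusted p = 1.9e-06). Of 24 amino acid and taurine transporters 7 rose and 13 fell, beside 13.8% and 32.3% of all genes. Slc7a6, a cationic and neutral amino acid exchanger subunit, was at 0 to 6.25 (median 3.45) in 2-cell and at 69.0 to 503 (median 312) in 4-cell libraries, a log2 change of 5.91 (SE 0.64, adjusted p = 1.9e-07), and Slc6a6, the taurine transporter, had a log2 change of 1.81 (SE 0.35, adjusted p = 2.1e-04), while the cationic transporter Slc7a2 had a log2 change of -4.31 (SE 0.76, adjusted p = 9.2e-05).

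Markers of other cells that a preparation could carry were low. Of the cumulus cell markers listed, 16 are in the table and 5 were tested, of which Foxl2 was called, at 0 to 4.35 (median 1.38) at the 2-cell stage and 0 in every 4-cell library. The summed cumulus value was 34.5 to 118 (median 64.6) and 16.0 to 151 (median 62.4), and 5 of the 16 were at 0 in all 13 control libraries. Of sperm and spermatid markers 18 are in the table and 6 were tested, of which 4 fell, with summed values of 173 to 496 (median 229) and 21.3 to 65.7 (median 43.2), and the largest part of the sum was Odf2, which is also expressed outside sperm. With any 1 library left out 1 to 3 of the sperm markers fell, and without 4-cell libraries 1 and 2 1 fell, as did 0 of the cumulus markers. Over all genes 32.3% were lower and 13.8% higher. The part of these markers in other results was not tested. Y-linked genes, Ddx3y, Eif2s3y and Uba1y, rose with overlapping groups. At least 10 reads per 1000000 on Y-linked genes were found in 3 of 7 2-cell libraries, at 62.2 to 93.2, and in 4 of 6 4-cell libraries, at 77.0 to 353, and the part of this in the calls was not tested.

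The same transition was then measured in light-treated embryos, which share no library with the control comparison. Of 17258 genes tested there, 6293 (36.5%) were DEGs, 5010 (29.0%) lower and 1283 (7.43%) higher, with a median of all genes of -0.56. Of 5364 genes that fell in control and were tested in light, 3817 (71.2%) also fell in light and 4 rose. These made up 78.6% of the 4857 light falls tested in control. Of 2387 genes that rose in control, 900 (37.7%) also rose in light and 5 fell, which made up 72.1% of 1249 light rises. Because the genes were chosen on control values, their control medians are the larger by construction: -3.07 in control and -2.03 in light for the falls, and 2.45 and 0.98 for the rises. Reads outside the ribosomal RNA-like genes numbered 318177 to 2867034 (median 1340924) in light 2-cell and 377385 to 2413704 (median 1577205) in light 4-cell libraries. The lowest of these lie below every control 2-cell and 4-cell library. The part of depth in the light counts and in the differences below was not tested.

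Whether the change itself differed was tested with the interaction of treatment and stage. Of 20395 genes, 627 (3.07%) were called, 332 (1.63%) with a light change above and 295 (1.45%) with a light change below that of control, and 3812 genes had an unadjusted p under 0.05. In 588 of the 627 the light change was the smaller in size. Btg4 fell in both, and the log2 difference between its changes, light minus control, was 3.21 (SE 0.57, adjusted p = 0.0028). Its values in light embryos were 461 to 1869 (median 778) in 2-cell and 25.5 to 62.9 (median 35.6) in 4-cell libraries. Cnot6l, Nlrp9c and Bmp15 had differences of 3.63, 4.29 and 3.03, with adjusted p-values of 0.016, 2.7e-04 and 0.0061. Among the rises, Hspa8 differed by -2.22 (adjusted p = 0.0086) and Rpl3 by -2.04 (adjusted p = 0.0092). Light 2-cell libraries held 105 to 268 (median 118) of Rpl3 and light 4-cell libraries 671 to 1790.1 (median 1082), so every light 2-cell value was above every control 2-cell value.

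In light 2-cell libraries the genes that rise in control took 13.4% to 26.0% (median 19.0%) of the reads outside the ribosomal RNA-like genes, beside 4.95% to 10.1% in control 2-cell libraries. The genes that fall took 33.7% to 53.3% (median 43.0%), beside 57.2% to 71.0%. The genes were chosen on the control 2-cell values, which are the more extreme by that choice, so the gap is a description and was not tested. At the light 4-cell stage the shares were 41.6% to 46.9% and 14.1% to 20.0%. The hour of collection within the stage is not given in the sources used here, so exposure and time of collection cannot be told apart.

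Bex1 was among the 5 genes that rose in control and fell in light. It rose in control, where it was at 0 to 35.8 (median 0) in 2-cell and at 0 to 233 (median 46.0) in 4-cell libraries, and the groups overlapped. In light it fell, and it was at 0 to 307 (median 23.2) in 2-cell and at 0 to 3.43 (median 0) in 4-cell libraries. The difference between the changes was -6.72 (SE 1.67, adjusted p = 0.022). Hes1, a Notch-responsive repressor, had a log2 change of -3.54 (SE 0.62, adjusted p = 7.9e-05) in control, at 42.7 to 201 (median 102) and then at 1.90 to 38.7 (median 8.32). In light it was at 0.826 to 81.6 (median 21.7) and 0.981 to 142 (median 97.6), a log2 difference of 1.89 (adjusted p = 0.059), and the difference between the changes was 5.43 (adjusted p = 0.0086). Gata4 fell in control and had a light difference of -0.09 (adjusted p = 0.83), and its interaction was 1.84 (adjusted p = 0.032). Klf5 was not called in control but rose in light, where it was at 90.5 to 191 (median 143) in 2-cell and at 236 to 607 (median 400.5) in 4-cell libraries, with an interaction of 1.76 (adjusted p = 0.049). The transient Zscan4c, Zscan4d, Usp17lc and Zfp352 fell in both groups, and their interactions did not pass the test, with adjusted p-values of 0.50, 0.61, 0.51 and 0.68. By list, 54 of 85 ribosomal proteins, 26 of 78 oxidative phosphorylation and 14 of 45 proteasome genes rose in light, beside 7.43% of all genes tested there. Nucleolar genes rose in 10 of 106, near that share. The falls in light numbered 41 of 43 oocyte genes, 13 of 16 of the subcortical maternal complex and 39 of 50 transient genes, beside 29.0% of all genes.

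**Figure D4:**
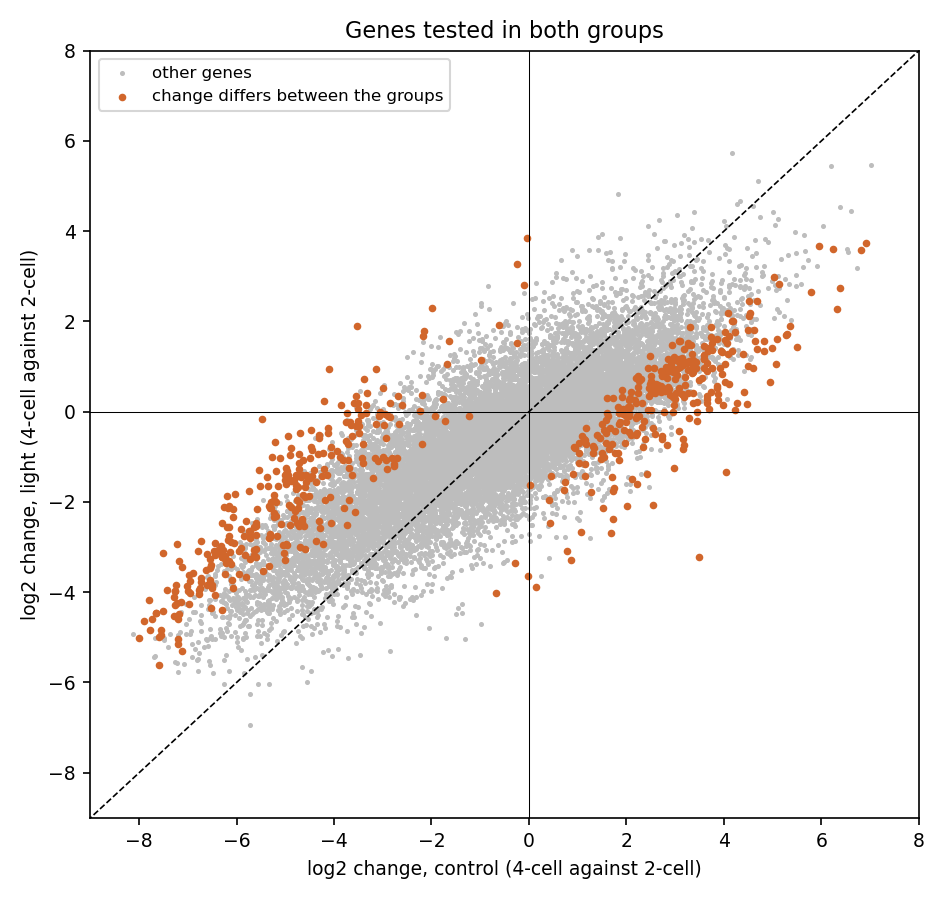
Log2 difference between the 4-cell and the 2-cell stage in light-treated libraries (vertical axis) against that in control libraries (horizontal axis), 1 point per gene tested in both, with genes whose change differs between the groups by the interaction test in orange and equal change on the dashed diagonal. Of the 627 genes called by the interaction test, 588 have a light change that is smaller in size than the control change.

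How far the falls lasted depended on the scale. Of 4605 downregulated genes with a 2-cell mean of at least 10, 2503 (54.4%) stayed more than 4-fold below that mean in every later control stage, and 303 reached it again at a later stage. Over all 10042 genes tested with such a mean, 25.5% stayed so far below, and 3306 reached their 2-cell mean between the 8-cell and blastocyst stages. The ribosomal RNA-like share was higher at later control stages, with medians of 75.2% (8-cell), 79.1% (morula) and 74.0% (blastocyst) against 61.9% (4-cell). In reads per 1000000 outside the 2 ribosomal RNA-like genes, chosen as a scale after seeing the data, 1599 of the 4605 genes (34.7%) stayed more than 4-fold below, against 16.2% of all. On this scale 881 of the 4605 reached their 2-cell mean again, against 5550 of all 10042. The share of these reads on all downregulated genes had medians of 13.3% in 4-cell embryos, 23.7% in 8-cell embryos, 15.8% in morulae and 26.4% in blastocysts. Btg4 was at 16.7 to 35.1 (median 24.5) in 8-cell, 0 to 12.1 (median 5.49) in morula and 8.99 to 11.0 (median 10.4) in blastocyst libraries. Dab2, an endocytic adaptor of extraembryonic cells, was among those that returned. It was at 54.8 to 133 (median 103) in 2-cell, 0 to 92.9 (median 1.79) in 4-cell and 0 to 5.55 (median 0.683) in 8-cell libraries, and at 15.8 to 361 (median 129) in morulae. Zfp352 was at 17.1 to 109 (median 68.9) in 8-cell libraries, overlapping its 2-cell values, and at 0 to 1.76 (median 0.525) in morulae, while Zscan4d was at 0 to 1.06 (median 0) in the same 8-cell libraries. These stage values are descriptions of separate embryos, with 4 libraries at the 8-cell stage.

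Whether the rises peaked at the 4-cell stage also depended on the scale. Of 2094 upregulated genes with a 4-cell mean of at least 10, 1537 (73.4%) had their highest mean of the 5 control stages there, against 39.8% of all 8183 genes tested with such a mean. In reads per 1000000 outside the ribosomal RNA-like genes these shares were 43.3% (906 genes) and 23.7%. The genes were chosen for high 4-cell values, so these shares are a description. A mean no more than 2-fold below the 4-cell mean was held by 531 (25.4%) at the 8-cell stage, 1244 (59.4%) in morulae and 631 (30.1%) in blastocysts, and 70 were more than 8-fold below it in both morula and blastocyst. Over all 8183 genes 50.8%, 58.6% and 49.2% had such a mean at these stages, and 216 genes were more than 8-fold below in both. On the other scale the numbers of upregulated genes were 1394 (66.6%), 1621 (77.4%), 1040 (49.7%) and 47. Over all 8183 genes the shares on that scale were 77.6%, 76.1% and 66.9%, and 141 genes were more than 8-fold below. Fkbp10 was at 10.4 to 32.5 (median 25.6) in 8-cell and at 0 to 22.8 (median 0) in morula libraries, and Ripor3 at 6.92 to 26.8 (median 18.8) and 0 to 14.9 (median 0). In both genes the median was highest at the 4-cell stage. Isyna1 was at 178 to 279 (median 237) in 8-cell and 969.98 to 4334 (median 1654) in morula libraries, Hspa8 at 542 to 1534 (median 965) and 1667 to 6466 (median 3155), and Nanog at 0 to 23.2 (median 7.04) and 3.53 to 329 (median 56.1). Each of these 3 had a lower median at the 8-cell stage than on either side of it.

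**Figure D5:**
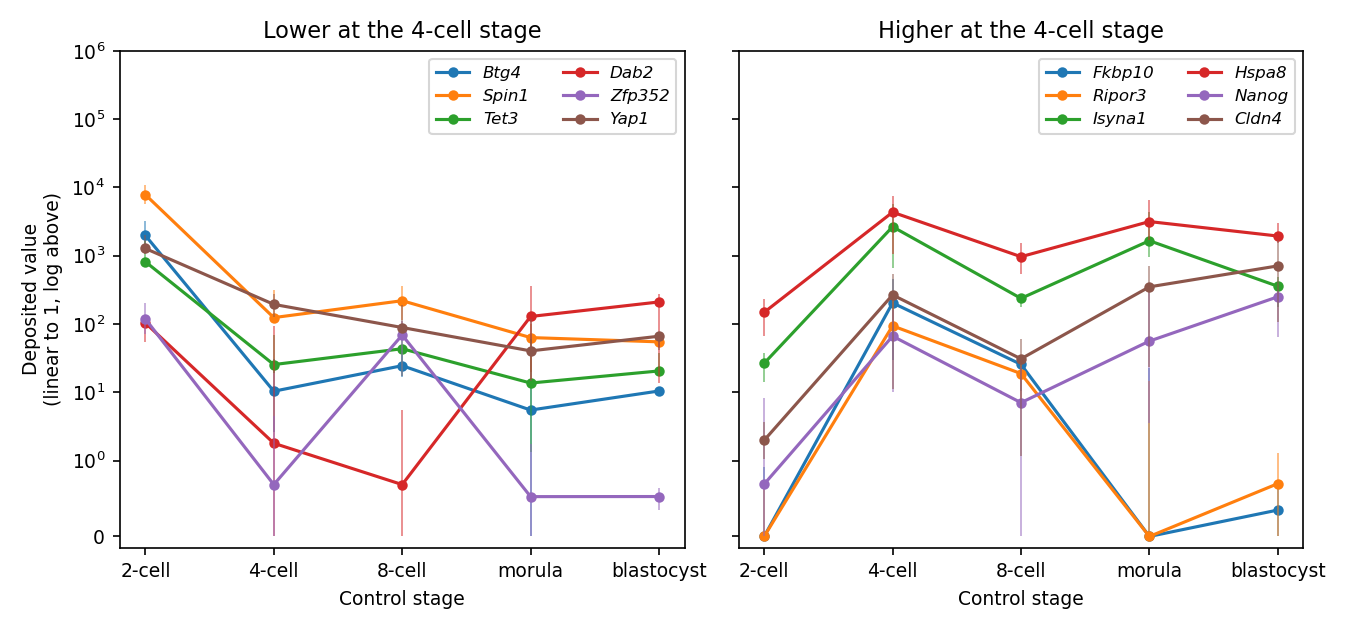
Median deposited value (vertical axis, linear up to 1 and logarithmic above) of 6 genes lower and 6 genes higher at the 4-cell stage over the 5 control stages, with vertical lines from the lowest to the highest library. Btg4, Spin1, Tet3 and Yap1 stay low after the 2-cell stage, Dab2 and Zfp352 return at different stages, and Fkbp10 and Ripor3 peak at the 4-cell stage.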

How the data were processed

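Libraries were made by SMART-seq2 from single cells of mouse embryos. Per the labels' processing notes, the tools included HISAT2 and HTSeq 0.9.1, with the mm9 build. The study's methods name RPKM, but the deposited signal values are not divided by gene length. In each library at least 99.97% of them were whole multiples of 1 number (tolerance 0.01 reads), so the authors' values are gene read counts divided by a size factor. The table holds 26414 genes, and 0 of its columns were left unmapped to a sample. In 24 rows the symbol had become a date, and 11 genes had values that were not whole.

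Genes that exceeded 1 in 3 or more of the compared libraries were tested with limma 3.58.1 (lmFit, eBayes with trend, R 4.3.3) on log2(value + 1), which understates changes of low genes. P-values were adjusted by Benjamini-Hochberg over all genes tested, and genes with an adjusted p under 0.05 and a fold of at least 2 were called. The interaction of treatment and stage was fitted over 27 libraries. Library measures were compared by exact permutation tests. Alternatives used edgeR 4.0.16 and DESeq2 1.42.0 on recovered reads, other scalings, filters and pseudocounts, and each library left out. A fold against a group at 0 was computed against 3 reads over that group, and Poisson intervals (95%) cover counting error only.

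Groups came from sample titles. Named genes were the 10 largest rises and falls with groups apart, a mean of at least 10 and a symbol that is not a predicted one, the 2 members of each of 26 lists with the smallest p in each direction, 3 interaction genes each way and a set of textbook genes. Genes, lists and comparisons were chosen with earlier results of these data known, and genes named beyond this rule were members of those lists. Of the symbols, 26288 were matched to GENCODE M21 (GRCm38), which is not the build of the reads, so its coordinates serve for reference sequence and position only. RefSeq promoters (GRCm38.p6) were matched for 12246 symbols. Leaving out 4-cell libraries 1 and 2 or 3 to 6, thinning to 1129726 reads and the second scale for later stages were chosen after seeing the data. Python 3.11.15 with numpy 2.4.6, pandas 2.3.3, scipy 1.17.1 and matplotlib 3.10.9 was used.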

Additional observations from a re-analysis of the deposited data

Results flagged for a closer look

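Of 305 groups of values checked, 36 held a library whose gap to its nearest neighbor was large for the range of the group. The rule would flag about 1 in 20 (5%) of groups of normally distributed values. That rate does not hold for groups in which all other libraries were at 0, so the 36 are not compared with it. In the 2-cell group, library 24 was at 22.1 for Galk1 (others up to 1.59), 4.60 for Tufm (others up to 1.04), 35.8 for Bex1 (others up to 1.38) and 0 for Slc7a6 (others from 2.08). Library 12 was high for Nol8 at 617, Yap1 at 2038, E2f5 at 1192, Tdgf1 at 6.52 and Duxf3 at 7.83, where the others reached 308, 1390, 659, 1.04 and 1.19. Library 9 was at 0.690 for Ripor3, with the others at 0, and at 0 for Pramel6, with the others at 19.0 or more. Library 10 was at 404.0 for Hsf1 (others from 509.7) and 11.5 for Mtm1 (others up to 1.38). Library 17 was at 4.35 for Uba1y, 0.869 for Cdx2 and 8.69 for Zar1, and library 11 at 13.5 for Ddx3y. Library 8 was at 22.2 for Mrps30 and 0.793 for Zfp593, and its 8151789 total reads compared with at most 4348666 in the others. Leaving out any of these libraries moved neither count of control calls over all genes by more than 1.5 times.

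In the 4-cell group, library 4 was at 309 for Spin1, 108 for Zfp57, 0.978 for Pdk1 and 1.96 for Lrp10, above the others in each. Library 1 was at 0.852, the value of 1 read, for Slc1a4, where the others were at 0, and for Zfp957 and Eif4e1b, where the others were higher, and its mitochondrial share of 7.33% compared with 3.09% to 4.63% in the others. Library 3 was low for Ncl at 362 and Fbl at 140.3, where the others were at no less than 962 and 275. It was high for Klf5 at 217 and Hspa1a at 9.88, and Duxf3 at 0.380 was 1 read. Library 2 was at 111 for Klf17 (others from 348), library 5 at 0.683 for Pabpn1l and library 6 at 1.64 for Zar1.

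The change between the stages differed between control and light embryos for 45 of the named genes by the interaction test (limma, adjusted p under 0.05 and at least 2-fold), 22 with a light change above and 23 with a light change below that of control. Over all genes 3.07% were called. The rule named 150 genes, many of them by their control values and 3 each way by this interaction. Control values also enter the test, so the number and the signs are a description. Values are the light minus the control log2 change. Among genes that fell in control it was 3.26 for Rfpl4, 3.63 for Cnot6l, 2.94 for Bmp5, 3.14 for Rph3a, 3.21 for Btg4 and 3.18 for Jazf1. It was 1.99 for Zbed3, 4.29 for Nlrp9c, 2.14 for Spin1, 3.00 for Obox5, 2.60 for Tcl1 and 3.03 for Bmp15. For E2f5, Pdk1, Gata4, Psme4, Psme3 and Zfp957 it was 2.02, 3.40, 1.84, 2.08, 1.74 and 2.82. Hes1, Ptprs and Lrp10, the 3 genes with the largest positive values among those the rule allowed, had 5.43, 5.33 and 5.04, and Klf5 had 1.76.

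Among genes that rose in control the value was -3.24 for Nt5c3b, -3.64 for Tufm, -4.04 for Phgdh, -2.62 for Isyna1, -3.48 for Gtf2h2 and -2.06 for Crxos. Ribosomal and nucleolar genes had -2.04 (Rpl3), -2.16 (Rpl5), -4.06 (Mrps34), -2.66 (Mrpl22), -1.53 (Npm1), -2.81 (Gnl2) and -2.34 (Nop56). Chaperones and others had -2.22 (Hspa8), -1.88 (Hsp90ab1), -1.80 (Eef2), -2.16 (Snrpb), -1.90 (Dppa2), -1.60 (Cdc20) and -2.82 (Zfp593). The largest negative values were those of Bex1 at -6.72, Nudt16l1 at -5.38 and Mtm1 at -4.61.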

How the results depend on the processing

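The number of genes called lower at the control 4-cell stage stayed within 1.5 times of 5719 in all 27 alternatives. The number called higher was 4179 under quantile normalization and 1181 when 4-cell libraries 3 to 6 were left out together, which leaves only libraries 1 and 2 at that stage, against 2453. With 1 library left out it was 2044 to 2531 higher and 5251 to 5868 lower. DEGs that were lower made up 70.0%, but 49.2% under quantile normalization and 78.3% without 4-cell libraries 3 to 6. Of the 3988 values of named genes under the alternatives, 3849 kept their side of the threshold, 136 lost the call, 3 gained it and 0 reversed, and 113 of 138 called genes kept the call in every alternative. In light embryos the number of genes higher was 2003 with median-of-ratios scaling, against 1283, and the other counts stayed within 1.5 times.

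The interaction counts were the least stable, at 627 in all, 332 with the light change above and 295 with it below. A pseudocount of 0.1 gave 407 in all and 199 above, median-of-ratios scaling gave 623 above, and edgeR gave 1096, of which 576 were above and 520 below. With 1 library left out the counts ran from 314 to 965 in all, 168 to 437 above and 146 to 528 below. Leaving out control 4-cell library 3 gave 965 in all and 528 below, and leaving out light 2-cell library 12 gave 314 in all, 168 above and 146 below. Without control 2-cell library 9 the counts were 399, 207 and 192, and without light 2-cell library 14 they were 369, 200 and 169. Without light 2-cell library 10 they were 406 in all and 180 below, and without light 2-cell library 9 there were 213 above. Those below numbered 185, 188 and 168 without control 4-cell library 4, 5 or 6, and 193 without light 4-cell library 5. The cause was not tested. The difference in mitochondrial share was -2.84 to -1.99 percentage points with 1 library left out, and its adjusted exact permutation p rose above 0.05 without 2-cell library 8, 12, 17 or 24 or 4-cell library 2, 3, 4, 5 or 6.

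No paired analysis was possible because the control 2-cell and 4-cell libraries compared share no replicate number. For the interaction, numbers shared between control and light libraries gave 176 calls in all, 54 above and 122 below, with the replicate block. Deviations of same-numbered libraries from their group means correlated at -0.065 to 0.070, so the numbers do not pair the samples. Low genes were less often called lower, with 18.0% of genes at a 2-cell mean of 1 to 10 against 57.6% of those at 100 to 1000. The part of depth in this gap was not tested.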
